A study of Mus musculus with 4 samples.

Results

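The genes described here are 47 genes of DNA replication and of the G1/S transition, measured in 4 wild-type libraries of differentiating mouse embryonic stem cells, 2 at day 4 and 2 at day 6. They form a list by function, which was drawn up with earlier results of these data known: the MCM2-7 helicase, the factors that license and activate origins, primase and the replicative polymerases, the sliding clamp and its loader, lagging strand enzymes, RPA, enzymes of nucleotide supply, chromatin assembly factors, and E2f1 with the 2 E-type cyclins. The 47 genes had 64 of the 35656 transcript rows, and 34 of them had a single row. All 47 had a mean of at least 1 FPKM (fragments counted per length of transcript and per depth of library) over the 4 libraries, and so were among the 11716 genes tested of 26994 symbols or IDs. No value was missing, although Cdc6 and Pole2 were listed at 0 in 1 library.

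All 4 libraries were made from CJ9, a mouse embryonic stem cell line of strain 129S4/SvJae. The cells were wild type, carried Cas9 only, and were differentiated by withdrawal of LIF, the cytokine that holds mouse embryonic stem cells in self-renewal. These are the controls of a study of cells with the Evx1as and Evx1 promoter and exon deleted, which were not analysed here. Day and replicate number were taken from the titles. The time and harvest entries match the titles, but the culture text does not for 3 libraries: it has 2 and 6 days without LIF for day 4 replicates 1 and 2, and 4 and 6 days for day 6 replicates 1 and 2. The culture text thus sets the 2 libraries titled day 4 further apart than the 2 titled day 6. This may bear on every gap between the day 4 libraries given below, which was not tested. Whether the 2 libraries of each day stem from independent cultures is not said in the labels, so every p-value reflects the spread among these libraries alone, and that spread may be technical.

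Replication starts in 2 steps. In G1 the origin recognition complex, with Cdc6 and Cdt1, loads the MCM2-7 helicase onto DNA, and in S phase Cdc45 and GINS join it to unwind the duplex. Primase and polymerase alpha then lay primers, RFC loads the PCNA clamp, and polymerases delta and epsilon extend the strands. Many of these genes are transcribed at G1/S under E2F factors. Mouse embryonic stem cells are known for a short G1, a large part of the cycle spent in S phase and high cyclin E activity, and the cycle lengthens as they differentiate.

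The libraries themselves set how far the days could be compared. Depth, estimated from the deposited intervals, was about 3810000 and 3670000 fragments in day 4 replicates 1 and 2, and 6610000 and 5880000 in day 6 replicates 1 and 2. Genes at 1 FPKM or more numbered 9449 in day 4 replicate 2 against 11206 to 11840 in the other libraries. The median log2(FPKM + 1) difference of all genes tested, day 6 minus day 4, was 0.51, so a member near that value lay with the bulk of genes. Embryonic stem cell markers were present in every library. The summed FPKM of the 8 markers was 675 and 887 at day 4, and 221 and 219 at day 6, and Pou5f1 and Utf1 made most of it at day 4. One by one, 4 of the 8 were lower at day 6 without overlap (Pou5f1, Sox2, Nanog and Utf1), 3 were higher (Zfp42, Klf4 and Esrrb) and Dppa5a overlapped. Marker sums of 4 of 6 other cell types were higher in both day 6 libraries. The 7 fibroblast or feeder genes summed to 9.84 and 8.39 FPKM at day 4 and to 142 and 271 at day 6, and 4 blood genes summed to 0 in both day 4 libraries and to 182 and 720 at day 6. Of the fibroblast list, Postn, Dcn and Lum were listed at 0 in both day 4 libraries, and of the blood list all 4 (Hba-x, Hbb-bh1, Hbb-y and Gata1). In day 4 replicates 1 and 2 and day 6 replicates 1 and 2, 4 endothelial genes summed to 4.72, 0.934, 10.5 and 25.7 FPKM and 4 endoderm genes to 1.06, 3.08, 17.0 and 20.3. The 4 cardiac genes summed to 10.3, 3.86, 3.09 and 2.59 FPKM and the 4 neuronal genes to 89.2, 27.3, 31.4 and 13.5, in the same order. The part of these cells in the values below was not tested. In these bulk libraries fewer cells of a type and less RNA per cell cannot be told apart.

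As a group the replication genes did not separate the 2 days. The median difference of the 47 genes was 0.47 on the log2(FPKM + 1) scale, against 0.51 for all genes tested. Both day 6 libraries lay above both day 4 libraries for 17 members, and this held for 41.6% of all genes tested. Both lay below for 4 members, Gins1, Fen1, Chaf1a and Slbp, against 11.5% of all genes. For the other 26 members the days overlapped. The members' shares were thus near the background or under it. No member passed limma's moderated test at an adjusted p of 0.05, and nor did any other gene (0 of 11716, 0%). At an unadjusted p under 0.05 limma gave 2 members, Rfc2 and Tk1, and 1793 genes in all. With 2 libraries a day, the smallest p an exact two-sided permutation test allows is 0.333.

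The split between higher and lower members depended on the scaling, so it is given under each. With each library scaled to its median gene, 6 members were higher at day 6 without overlap and 14 lower, against 21.4% and 24.6% of all genes. Quantile normalization gave 9 higher and 9 lower, against 23.1% and 25% of all genes. After a correction for the GC content of transcripts, 7 were higher and 15 lower, against 26.4% and 28.8% of the 11414 genes with a GC value. The same call under the deposited scale and all 4 other scalings (these 3 and TPM) was found for 5 higher members, Mcm6, Orc6, Prim2, Rfc2 and Tk1, and for the 4 lower ones, Gins1, Fen1, Chaf1a and Slbp.

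**Figure D1:**
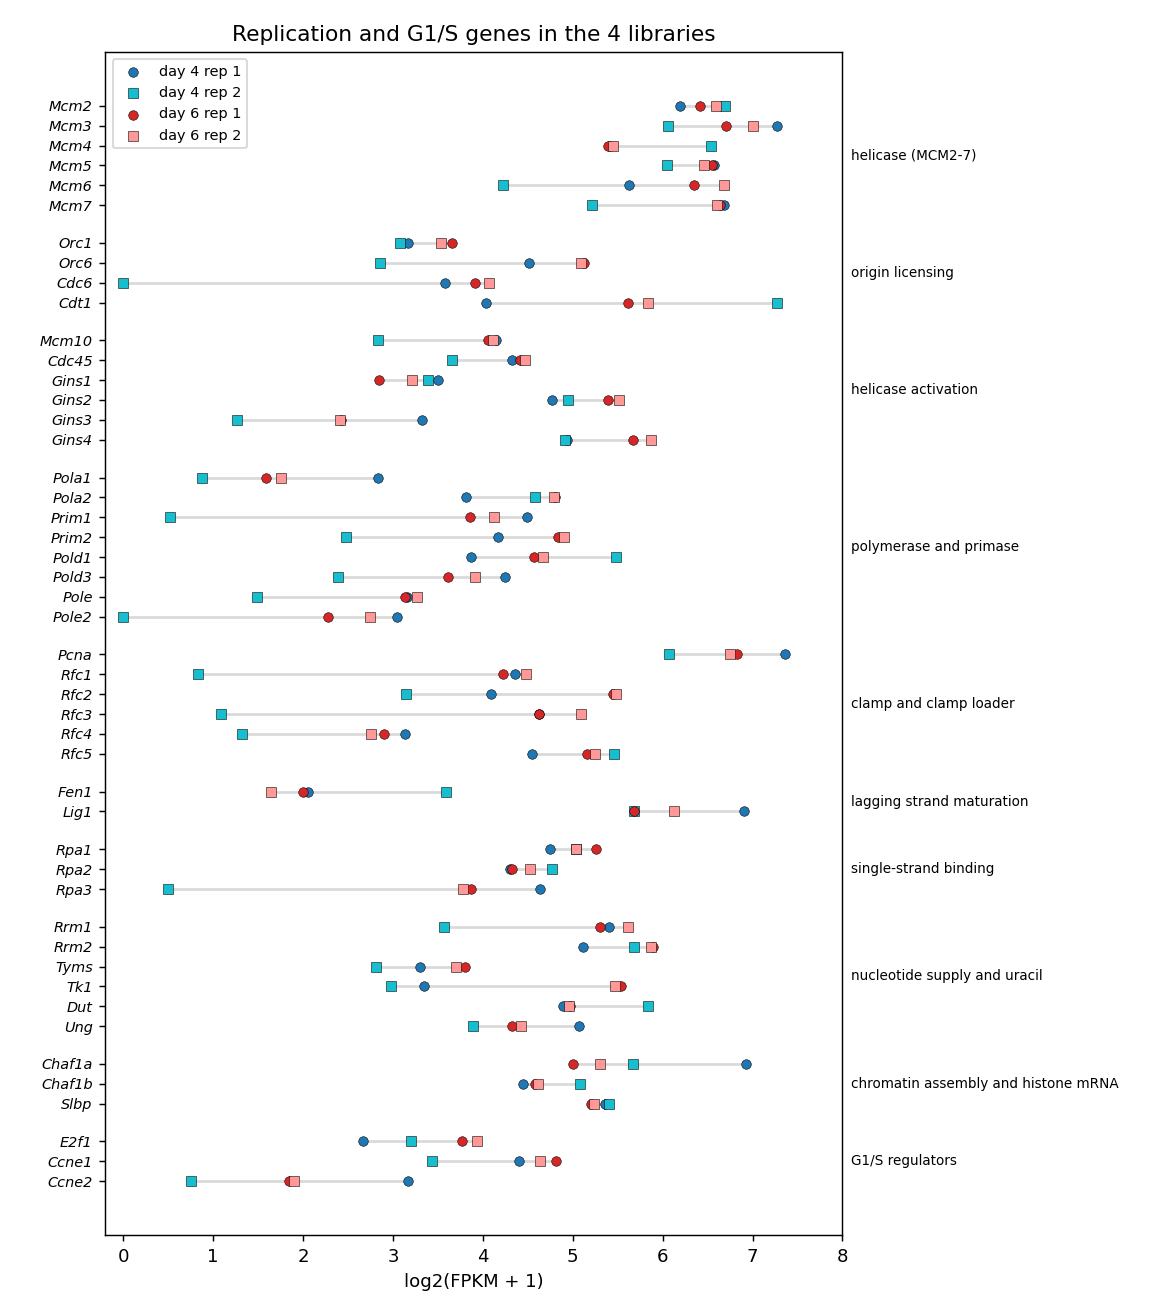
Level of each of the 47 genes, as log2(FPKM + 1), in the 4 libraries, grouped by role. Blue and cyan points are day 4 replicates 1 and 2, red and pink points day 6 replicates 1 and 2, and a grey bar spans the 4 values. The day 6 points of a gene lie close together, and day 4 replicate 2 is often the lowest point, with Cdc6 and Pole2 listed at 0 there.

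The largest differences within the group were between the 2 day 4 libraries. For 37 of the 47 genes, the gap between the day 4 libraries was larger than the difference between the day means. The same held for 7429 of the 11716 genes tested. The gap exceeded 2-fold for 27 members at day 4 and for 0 at day 6. Among all genes tested it did so for 6196 and 206, so wide day 4 gaps were not particular to the members. The median size of the gap, on the log2(FPKM + 1) scale, was 1.22 at day 4 and 0.13 at day 6, beside 1.07 and 0.19 for all genes tested. The gap also had a direction: 32 of the 47 were lower in day 4 replicate 2, beside 6613 of the 11716 genes tested. The median gap was -0.97, against -0.26 for all genes. Summed over the 47 genes, FPKM came to 1595, 1239, 1559 and 1682 in day 4 replicates 1 and 2 and day 6 replicates 1 and 2, or 0.354, 0.238, 0.313 and 0.336% of each library's FPKM. The day 4 replicate 2 library was the lowest of the 4, and day 4 replicate 1 lay within the range of day 6 in FPKM.

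The gap between the day 4 libraries went with the GC content of the transcript. Across the 47 genes Pearson's r between GC content and the day 4 gap was 0.58 and Spearman's rho was 0.58. Over the 11414 genes with a GC value they were 0.60 and 0.64, so the relation was not particular to the replication genes. For the day 6 gap r was 0.02 across the members. These correlations run across genes that share the same 2 libraries, and are given as descriptions. The 15 members of lowest GC content (35.5 to 46.9%) had a median gap of -1.81, and 12 of them were lower in day 4 replicate 2. The 17 in the middle had a median of -0.94. The 15 of highest GC content (52.5 to 60.7%) had a median of 0.18, and 7 of them were lower.

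The 2 members with the widest day 4 gap in each direction show the range of base composition behind these values. For each, the 60 bases at the middle of the coding sequence of the reference transcript are shown 5′ to 3′, with G and C in capitals. The GENCODE M21 transcripts on GRCm38 were used. Cdt1, at 154 FPKM in day 4 replicate 2 and 15.4 in replicate 1, has 40 G or C in this window, and Pold1, at 43.6 and 13.6, also has 40. Prim1, at 0.433 and 21.5 FPKM, has 17, and Rpa3, at 0.417 and 23.9, has 30. The low values of Prim1 and Rpa3 in day 4 replicate 2 rest on about 5.0 and 3.2 fragments, so the sizes of their gaps are uncertain.
Cdt1: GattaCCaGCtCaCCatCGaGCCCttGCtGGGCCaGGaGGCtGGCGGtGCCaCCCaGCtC
Pold1: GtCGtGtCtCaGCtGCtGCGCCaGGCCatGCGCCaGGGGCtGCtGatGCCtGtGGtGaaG
Prim1: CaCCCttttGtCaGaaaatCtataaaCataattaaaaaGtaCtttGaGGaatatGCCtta
Rpa3: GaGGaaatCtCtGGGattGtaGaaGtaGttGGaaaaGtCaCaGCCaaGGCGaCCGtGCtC
Over the whole transcript the GC content was 58.8% for Cdt1, 60.7% for Pold1, 44.3% for Prim1 and 40.4% for Rpa3. These 4 were picked by their gaps and do not stand for the group: Mcm4 and Rrm2, at 45.5 and 46.0% GC, were also higher in day 4 replicate 2. After the GC correction the median size of the day 4 gap was still 0.88 for the members, and 0.76 for all genes with a GC value.

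**Figure D2:**
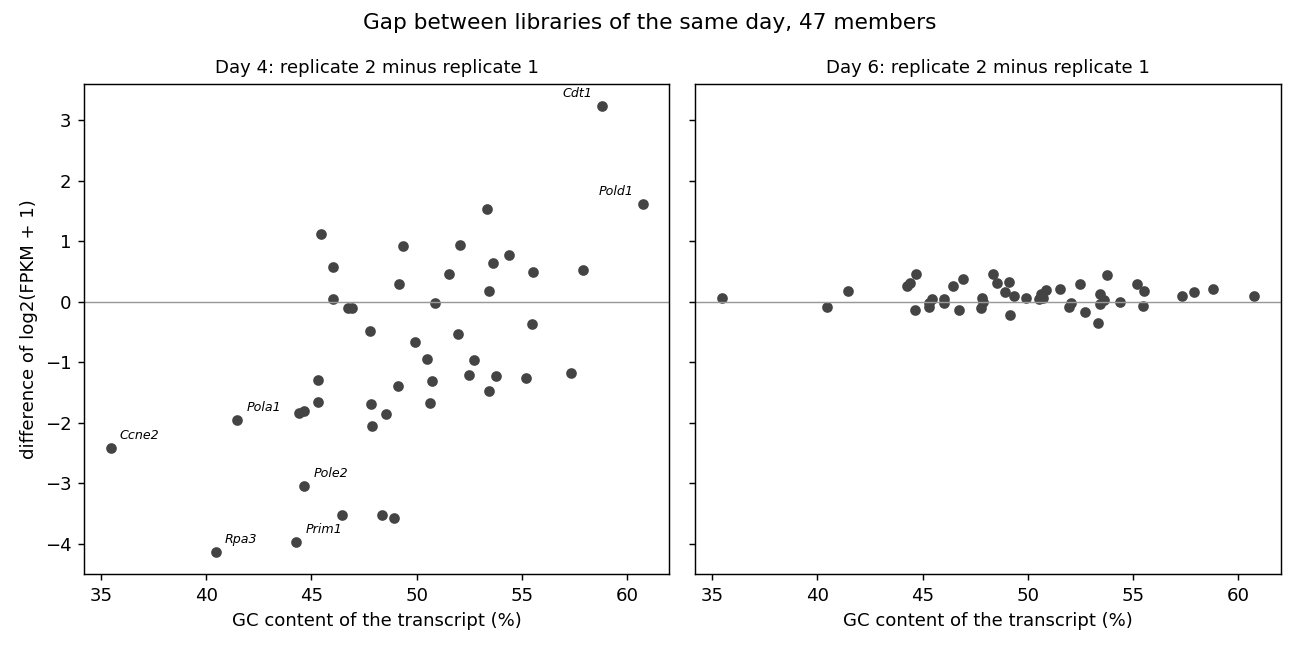
Difference between the 2 libraries of a day, replicate 2 minus replicate 1 in log2(FPKM + 1), against the GC content of the transcript in percent, with 1 point per gene for the 47 genes. At day 4 the points run from -4.14 for Rpa3 to 3.24 for Cdt1 and climb with GC content, whereas at day 6 no point lies farther than 0.47 from 0.

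Promoters of the group were searched for the motifs of E2F, of NF-Y (the CCAAT box) and of Sp factors (the GC box). A promoter entry, from 250 bases before to 50 bases after the start in RefSeq on GRCm38.p6, matched 39 of the 47 genes. The start of an entry was not always that of the transcript row with most FPKM. For Cdc6 and Cdc45 it was the start of the lower row. The whole E2f1 window lay inside its transcript row, so the bases ahead of that row were not searched. The 8 without an entry were Mcm4, Gins1, Gins2, Gins4, Prim2, Pole, Rfc2 and Ccne2. An E2F motif (TTTGGCGC, TTTCCCGC, TTTGCCGC or TTTCGCGC, on either strand) was found for 14 of the 39 genes, or 35.9%, against 2.26% of the 32851 promoters in the table and 5.19% of 9031 tested genes with an entry. The letters CCAAT were found in 56.4% of the members, 37.4% of all promoters and 43.2% of the tested genes with an entry. GGGCGG was found in 79.5% and 35.7%, but in 72.5% of the tested genes. A match is a description of letters, not a bound site.

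The 160 bases that end just before the start of the entry are shown for 4 licensing and helicase genes with an E2F match. They are also shown for Tk1 and Chaf1a, which had no match to the letters searched. These 2 had the widest differences between days in each direction on the deposited scale. For Cdc6 the start is that of its lower transcript row, at 0.29 FPKM or less. Its stretch and match thus lie inside the span of the row with nearly all of its FPKM. All stretches read 5′ to 3′ on the strand of the gene, with E2F matches in capitals. In Mcm5, and at one of the sites in Mcm6, 2 matches on opposite strands overlap.
Mcm5, chr8:75109349-75109508, plus strand: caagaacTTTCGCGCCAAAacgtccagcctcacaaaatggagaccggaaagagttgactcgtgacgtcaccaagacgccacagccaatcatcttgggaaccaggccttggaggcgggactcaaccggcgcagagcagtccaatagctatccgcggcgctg
Mcm6, chr1:128359706-128359865, minus strand: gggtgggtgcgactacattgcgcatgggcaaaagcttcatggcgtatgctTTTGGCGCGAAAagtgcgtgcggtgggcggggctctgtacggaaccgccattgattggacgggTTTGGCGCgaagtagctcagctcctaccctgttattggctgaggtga
Orc1, chr4:108579294-108579453, plus strand: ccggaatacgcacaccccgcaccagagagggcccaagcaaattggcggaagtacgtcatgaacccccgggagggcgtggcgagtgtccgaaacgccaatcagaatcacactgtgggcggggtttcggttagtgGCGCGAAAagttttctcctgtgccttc
Cdc6, chr11:98907991-98908150, plus strand: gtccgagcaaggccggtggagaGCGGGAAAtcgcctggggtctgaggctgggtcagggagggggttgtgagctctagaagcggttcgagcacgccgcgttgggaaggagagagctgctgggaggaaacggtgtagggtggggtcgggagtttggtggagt
Tk1, chr11:117826015-117826174, minus strand: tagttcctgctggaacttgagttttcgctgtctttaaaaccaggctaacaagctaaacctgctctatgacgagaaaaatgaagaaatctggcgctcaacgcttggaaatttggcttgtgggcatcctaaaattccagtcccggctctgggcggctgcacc
Chaf1a, chr17:56040256-56040415, plus strand: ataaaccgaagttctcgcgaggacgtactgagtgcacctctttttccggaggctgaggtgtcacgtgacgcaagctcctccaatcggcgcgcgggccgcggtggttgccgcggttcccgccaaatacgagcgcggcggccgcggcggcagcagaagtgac
Members with and without a match to the E2F motif both included genes that were higher at day 6. The split is by the letters searched, and genes without a match may still hold an E2F site. The windows of Chaf1a and Pola2 have tttggcggg on one strand, which was not among the letters searched. For Chaf1a it lies in the stretch shown, where it reads cccgccaaa. The E2f1 window lay inside its transcript row. Of the 14 genes with a match 4 were higher at day 6 without overlap, 0 were lower and 10 overlapped, with a median log2 difference of 0.32. Of the 25 without a match 9 were higher, 3 were lower and 13 overlapped, with a median of 0.49. These counts are on the deposited scale, where the background shares were 41.6% higher and 11.5% lower. After the GC correction 2 of the 14 were higher and 5 lower, with a median of -0.23. Of the 25, 3 were then higher and 9 lower, with a median of -0.24. The background shares were then 26.4% and 28.8%.

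The MCM2-7 helicase, a ring of 6 related subunits that unwinds the duplex, was among the most abundant members, with sums of 512, 379, 501 and 551 FPKM in day 4 replicates 1 and 2 and day 6 replicates 1 and 2. Only Mcm6 among the 6 had days that did not overlap. Its values were 48.5 and 17.8 FPKM at day 4 and 80.4 and 102 at day 6, or 33.1 ± 21.8 and 91.1 ± 15.0 (SD, n = 2 each). The log2 difference was 1.59 with an SE of 0.65, and the limma adjusted p was 0.349. The deposited bounds of Mcm6 in the 2 day 4 libraries, 43.1 to 52.9 and 15.0 to 20.4 FPKM, did not meet, so the gap between those libraries exceeded the counting error. The other 5 subunits went different ways in the day 4 pair. Mcm4 was at 41.5 and 91.6 FPKM at day 4 and 41.1 and 42.6 at day 6, so that day 4 replicate 1 matched day 6 and replicate 2 stood above it. Mcm7 was at 102 and 36.2 at day 4 and 98.8 and 96.5 at day 6, and here replicate 2 stood below. Mcm2, Mcm3 and Mcm5 overlapped between days too, at 65.1 to 153 FPKM in all libraries.

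At day 6 the subunits were also closer to each other. The highest of the 6 was 2.52 and 2.99 times the lowest in the day 6 libraries, and 3.69 and 5.76 times in the day 4 libraries. The lowest was Mcm4 in 3 libraries and Mcm6 in day 4 replicate 2. These ratios compare FPKM, which is scaled to transcript length but not to GC content, and day 4 replicate 2 differed from replicate 1 along GC content.

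Of the 4 licensing factors, 3 had higher values at day 6 without overlap, beside 41.6% of all genes tested. Only Orc6 among them kept this call under the deposited scale and all 4 other scalings. Orc1, the largest subunit of the origin recognition complex, was at 8.01 and 7.42 FPKM at day 4 and 11.6 and 10.6 at day 6. Its log2 difference of 0.47 was under that of the median gene, and it was below 0 after median, quantile or GC scaling. Orc6, the smallest subunit, was at 21.9 and 6.23 FPKM at day 4 and 33.8 and 33.2 at day 6, a log2 difference of 1.42 (SE 0.70, limma adjusted p = 0.402). Both day 4 libraries lay below day 6 for these 2 genes, and they differed from each other far more for Orc6 than for Orc1.

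Cdc6, the loader that works with the origin recognition complex, was at 10.9 FPKM in day 4 replicate 1, was listed at 0 in replicate 2, and was at 14.0 and 15.8 at day 6. Its difference between days is therefore set by a listed 0 and no fold is given. Cdt1, which brings the helicase to the origin, showed the opposite in the same library, at 15.4 and 154 FPKM at day 4 and 48.1 and 56.0 at day 6. Both day 6 values of Cdt1 lay between the 2 day 4 values, and in day 4 replicate 2 it was the most abundant of the 47 genes. The deposited bounds of Cdt1 at day 4 were 12.4 to 18.1 and 136 to 154 FPKM.

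Helicase activation factors held 3 members of 6 that were higher at day 6, Cdc45, Gins2 and Gins4, and 1 that was lower, Gins1. The shares over all genes tested were 41.6% and 11.5%. After the GC correction 0 of the 6 were higher and 3 lower, beside 26.4% and 28.8% of all genes. Gins4, a subunit of the GINS complex that binds the helicase, was at 29.6 and 29.1 FPKM at day 4 and 49.9 and 57.4 at day 6, with a log2 difference of 0.84 (SE 0.43, limma adjusted p = 0.411). Gins4 is one of the few members whose day 4 libraries were close, and their deposited values differed by less than the step to day 6. Its log2 difference was 0.63 without overlap after quantile normalization. Under median scaling and under the GC correction it fell to 0.15 and 0.11, and the days overlapped. Gins2 was at 26.2 and 29.8 FPKM at day 4 and 40.9 and 44.7 at day 6, also without overlap, with a log2 difference of 0.60 that was below 0 after median or GC scaling. Cdc45, which joins GINS on the helicase, was at 19.1 and 11.6 at day 4 and 20.2 and 21.2 at day 6. Its call turned from higher to lower under the GC correction (log2 difference -0.30).

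Gins1 was at 10.3 and 9.47 FPKM at day 4 and 6.19 and 8.30 at day 6, with a log2 difference of -0.41 (limma adjusted p = 0.661). The sum hides a split between 2 transcript rows. The values of the longer row were 5.00 FPKM, nearly 0, 4.56 and 8.30, and those of the shorter row 5.28, 9.47, 1.63 and nearly 0, in day 4 replicates 1 and 2 and day 6 replicates 1 and 2, so that day 4 replicate 2 and day 6 replicate 2 were each given whole to a different row. Taken from its highest row alone, Gins1 had a log2 difference of 1.55 in place of -0.41. Gins3 and Mcm10, the last 2 of this role, overlapped between days.

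Primase and polymerase genes were the role with the lowest rank in day 4 replicate 2, where their median percentile among genes tested was 38.7, against 65.7 in day 4 replicate 1 and 55.9 and 62.7 at day 6. Prim2, the large primase subunit, was at 17.0 and 4.58 FPKM at day 4 and 27.7 and 28.9 at day 6, without overlap (log2 difference 1.55, SE 0.70, limma adjusted p = 0.381). Its partner Prim1, the catalytic subunit, was at 21.5 and 0.433 at day 4 and 13.5 and 16.5 at day 6, so the day 6 values lay inside the day 4 range. The width of that range is uncertain, since Prim1 had about 5.0 fragments in day 4 replicate 2. Its deposited bounds there were 0 to 0.773 FPKM. Pola1, the catalytic subunit of polymerase alpha, was low in all libraries (6.10 and 0.838 FPKM at day 4, then 2.00 and 2.37), and its second subunit Pola2 was at 13.1 and 23.0 and then at 27.0 and 26.8. Both primase subunits were thus higher in day 4 replicate 1, while Pola1 and Pola2 differed in which day 4 library was high.

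The leading and lagging strand polymerases overlapped between days. Pold1, the catalytic subunit of polymerase delta, was at 13.6 and 43.6 FPKM at day 4 and 22.8 and 24.5 at day 6, and Pold3, an accessory subunit, was at 17.9 and 4.25 and then at 11.2 and 14.1. Pole, the catalytic subunit of polymerase epsilon, was at 7.94 and 1.81 FPKM at day 4 and 7.78 and 8.64 at day 6. Its partner Pole2 was at 7.24 and listed at 0 at day 4, and at 3.86 and 5.69 at day 6. In each of these 4 genes day 4 replicate 1 and replicate 2 lay further apart than the 2 libraries of day 6.

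Among clamp and clamp loader genes Rfc2 stood out. Rfc2, a small subunit of the loader, was at 16.1 and 7.88 FPKM at day 4 and 42.5 and 43.7 at day 6, or 12.0 ± 5.80 and 43.1 ± 0.864 (SD, n = 2 each). The log2 difference was 1.84 with an SE of 0.52, with an unadjusted p of 0.0213 and an adjusted p of 0.288 by limma. The deposited bounds were 12.2 to 19.3 and 5.46 to 10.1 FPKM at day 4, and 35.5 to 44.2 and 36.4 to 45.1 at day 6. All day 6 bounds were above all day 4 bounds.

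The loader subunits, which act as a complex of 5, were far from equal in day 4 replicate 2. Rfc1 was at 0.780 FPKM there and Rfc5 at 43.1, a ratio of 55.3 between the lowest and the highest of the 5 subunits, against 3.05 in day 4 replicate 1 and 6.58 and 7.59 at day 6. Rfc3 was at 23.6 and 1.13 FPKM at day 4 and 23.7 and 33.1 at day 6, so its days were counted as not overlapping on a margin smaller than the deposited intervals. Rfc1 was at 19.5 and 0.780 at day 4 and 17.7 and 21.4 at day 6, and it overlapped. Pcna, the clamp, was the most abundant member in day 4 replicate 1, at 163 and 66.2 FPKM at day 4 and 113 and 107 at day 6. In 2 libraries its FPKM lay outside its own deposited bounds, and Pcna has processed copies in the genome, so its level is uncertain.

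RPA, the trimer that coats single-stranded DNA, gave the same picture. Rpa1 was at 25.8 and 31.8 FPKM at day 4 and 37.2 and 31.9 at day 6, a non-overlap resting on 31.8 against 31.9 in 2 libraries. Rpa2 was at 18.8 and 26.3 and then at 19.0 and 22.1. Rpa3, the smallest subunit, was at 23.9 and 0.417 FPKM at day 4 and 13.6 and 12.7 at day 6. The subunits lay within 1.38-fold of each other in day 4 replicate 1, 2.74-fold and 2.51-fold at day 6, and 76.2-fold in day 4 replicate 2. The last ratio is uncertain, since Rpa3 had about 3.2 fragments there and deposited bounds of 0 to 0.929 FPKM.

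Lagging strand enzymes were lower at day 6 or overlapped. Lig1, the ligase that seals Okazaki fragments, was at 119 and 50.4 FPKM at day 4 and 50.4 and 68.9 at day 6, with overlap. Fen1, the flap endonuclease, was at 3.17 and 11 at day 4 and 3.0 and 2.13 at day 6, a log2 difference of -1.0 (SE 0.66, limma adjusted p = 0.494). The locus of Fen1 is overlapped by a row on the opposite strand, Gm10143, at 18.3, 16.2, 17.2 and 14.7 FPKM in the same libraries. The sources used here do not give whether strand was used in the quantification, so reads of the 2 genes cannot be told apart. Their sum was 21.5 and 27.3 FPKM at day 4 and 20.2 and 16.8 at day 6.

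Nucleotide supply genes included Tk1, the member with the widest difference between days on the deposited scale. With a pseudocount of 0.1, or under TPM or median scaling, Cdc6, listed at 0 in 1 library, exceeded it. Tk1, thymidine kinase, which salvages thymidine for DNA synthesis, was at 9.19 and 6.91 FPKM at day 4 and 45.5 and 43.3 at day 6, or 8.05 ± 1.62 and 44.4 ± 1.59 (SD, n = 2 each). The libraries of each day were close and the days far apart. The log2 difference was 2.34 with an SE of 0.43, and the unadjusted p of 0.0044 became an adjusted p of 0.267 by limma over 11716 genes. Tk1 had the smallest p of the 47 genes. The deposited split between its transcript rows was not stable, with the whole of day 4 replicate 2 given to 1 row, so only the sum is used.

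The other genes of this role were nearer to the median gene. Rrm2 and Tyms, the small subunit of ribonucleotide reductase and thymidylate synthase, were higher at day 6 without overlap, Rrm2 at 33.5 and 50.5 and then 58.6 and 57.5 FPKM, and Tyms at 8.86 and 6.03 and then 13.0 and 12.0. Their log2 differences of 0.49 and 0.70 were below 0 after the GC correction. Rrm1, the large reductase subunit, was at 41.3 and 10.9 FPKM at day 4 and 38.4 and 47.9 at day 6. The uracil genes Dut and Ung, which keep uracil out of DNA, overlapped between days as Rrm1 did.

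**Figure D3:**
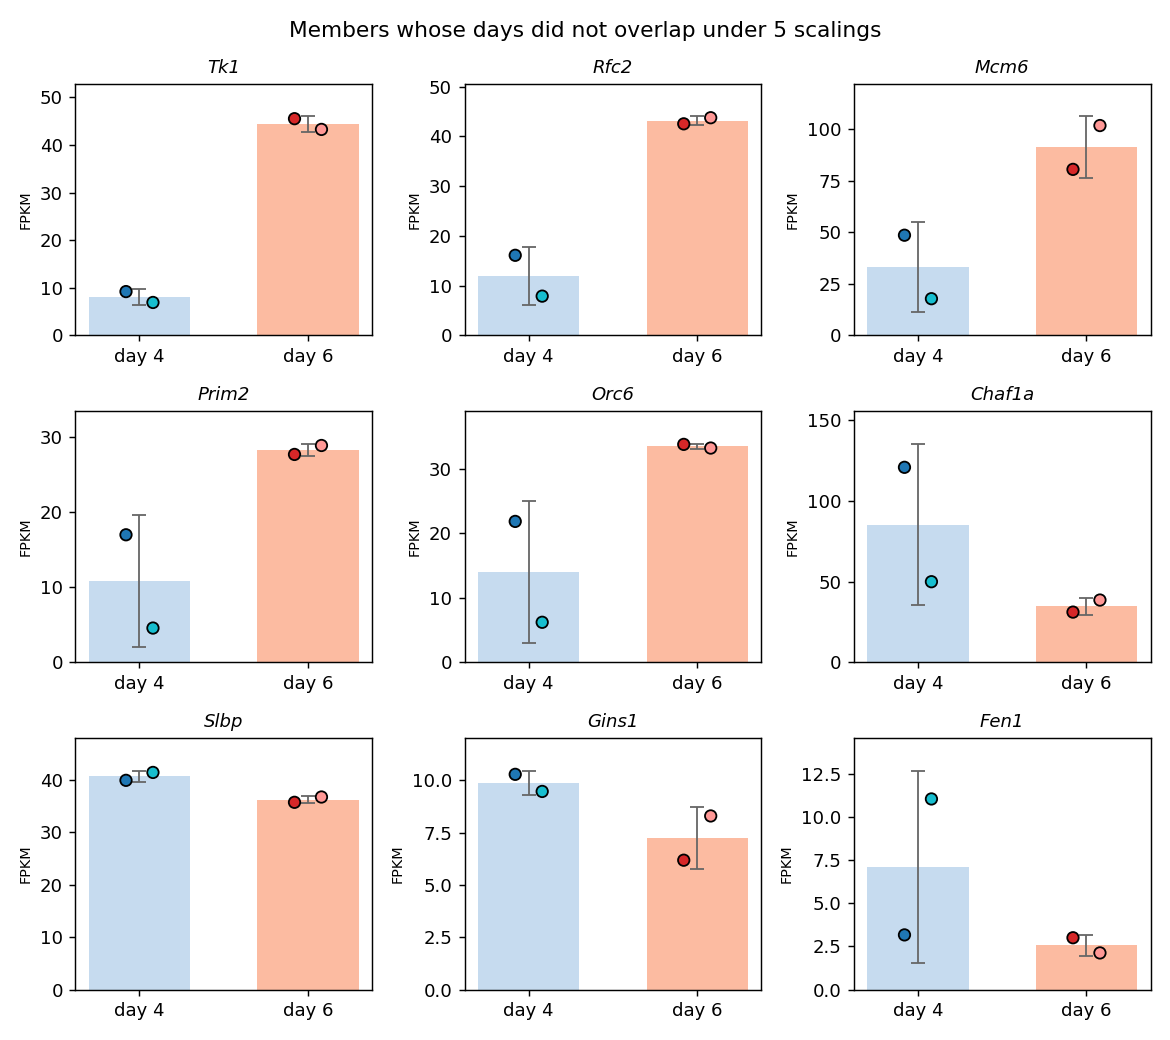
FPKM of the 9 members whose days did not overlap, in the same direction, on the deposited scale and under 4 other scalings, with bars for the mean of 2 libraries, error bars for the SD and 1 point per library. Tk1 and Rfc2 show means of 44.4 and 43.1 FPKM at day 6 against 8.05 and 12.0 at day 4, and Slbp shows day means of 40.7 and 36.2.

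Chromatin assembly genes were the one role whose sum was lower in both day 6 libraries, at 181 and 124 FPKM at day 4 and 89.7 and 98.8 at day 6, together with no member higher. Chaf1a, the large subunit of CAF-1, which places histones on new DNA, held the widest difference, at 121 and 49.9 FPKM at day 4 and 31.1 and 38.6 at day 6, or 85.2 ± 49.9 and 34.8 ± 5.27 (SD, n = 2 each). The log2 difference was -1.14 with an SE of 0.61, and the limma adjusted p was 0.427. Its lowest day 4 bound, 44.7 FPKM, was above its highest day 6 bound, 41.3, while the 2 day 4 libraries differed more from each other than replicate 2 did from day 6. Chaf1b, the second subunit, overlapped, at 20.8 and 32.9 and then 22.9 and 23.5 FPKM. Slbp, which binds the stem-loop of histone mRNAs, was steady in all libraries, at 39.9 and 41.4 FPKM at day 4 and 35.7 and 36.7 at day 6, a log2 difference of -0.16.

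The G1/S regulators were low to middling. E2f1, a transcription factor of the G1/S programme, was at 5.35 and 8.17 FPKM at day 4 and 12.7 and 14.3 at day 6, without overlap (log2 difference 0.92, SE 0.45, limma adjusted p = 0.401). Ccne1, cyclin E1, the partner of Cdk2 at S phase entry, was at 20.1 and 9.81 FPKM at day 4 and 27.0 and 23.9 at day 6, also without overlap. Neither E2f1 nor Ccne1 kept this call under the deposited scale and all 4 other scalings. After the GC correction E2f1 was still higher without overlap and Ccne1 was not. Ccne2, cyclin E2, was at 7.96 and 0.684 at day 4 and 2.59 and 2.72 at day 6, inside the day 4 range. The 2 cyclins thus stood apart in level at day 6. The Ccne2 locus overlaps Ints8 on the opposite strand, with the same limit on strand as at Fen1. Rows on the opposite strand also share bases with Orc1, Gins2, Pole, Rfc4, Lig1 and Tk1. Unnamed rows of unknown strand share bases with Mcm3, Rpa1 and Rrm1. In day 4 replicates 1 and 2 and day 6 replicates 1 and 2, the row in Rpa1 was at 9.78, 0, 21.0 and 22.8 FPKM. The row in Rrm1 was at 23.8, 6.55, 11.7 and 14.2, and that in Mcm3 at 1.83, 0, 0 and 0. How reads were split between these rows and the members was not tested.

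Each day 4 library was also set alone against day 6, since they differed so much. In these fits limma takes the spread from the day 6 pair and assumes that the lone day 4 library varies likewise, so the adjusted p-values are too small wherever day 4 cultures vary as the pair shows. Without day 4 replicate 2, 13 members passed as higher and 8 as lower, against 36.2% and 15.7% of all genes, and the median of the members was 0.08 against 0.37 for all genes. Without day 4 replicate 1, 27 passed as higher and 5 as lower, against 49.9% and 17% of all genes, with medians of 0.79 and 0.66. The members therefore ranked below the bulk of genes against one library and above it against the other.

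Passing against each day 4 library alone, in the same direction, were 7 higher members, Mcm6, Orc6, Gins4, Prim2, Rfc2, Tk1 and E2f1, and 0 lower. All genes did so in 20.7% and 4.14% of cases. Another 7 passed in opposite directions, against 10.8% of all genes. Cdt1 and Pold1 were higher at day 6 than day 4 replicate 1 and lower than replicate 2, and Gins3, Pola1, Pcna, Rpa3 and Ccne2 were the reverse. For Tk1 the log2 differences were 2.15 and 2.52, against replicates 1 and 2, and for Rfc2 1.37 and 2.31. For Cdt1 they were 1.69 and -1.55. Chaf1a, at -1.77 and -0.51, passed against replicate 1 only, with limma adjusted p = 0.0031 and 0.0792.

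**Figure D4:**
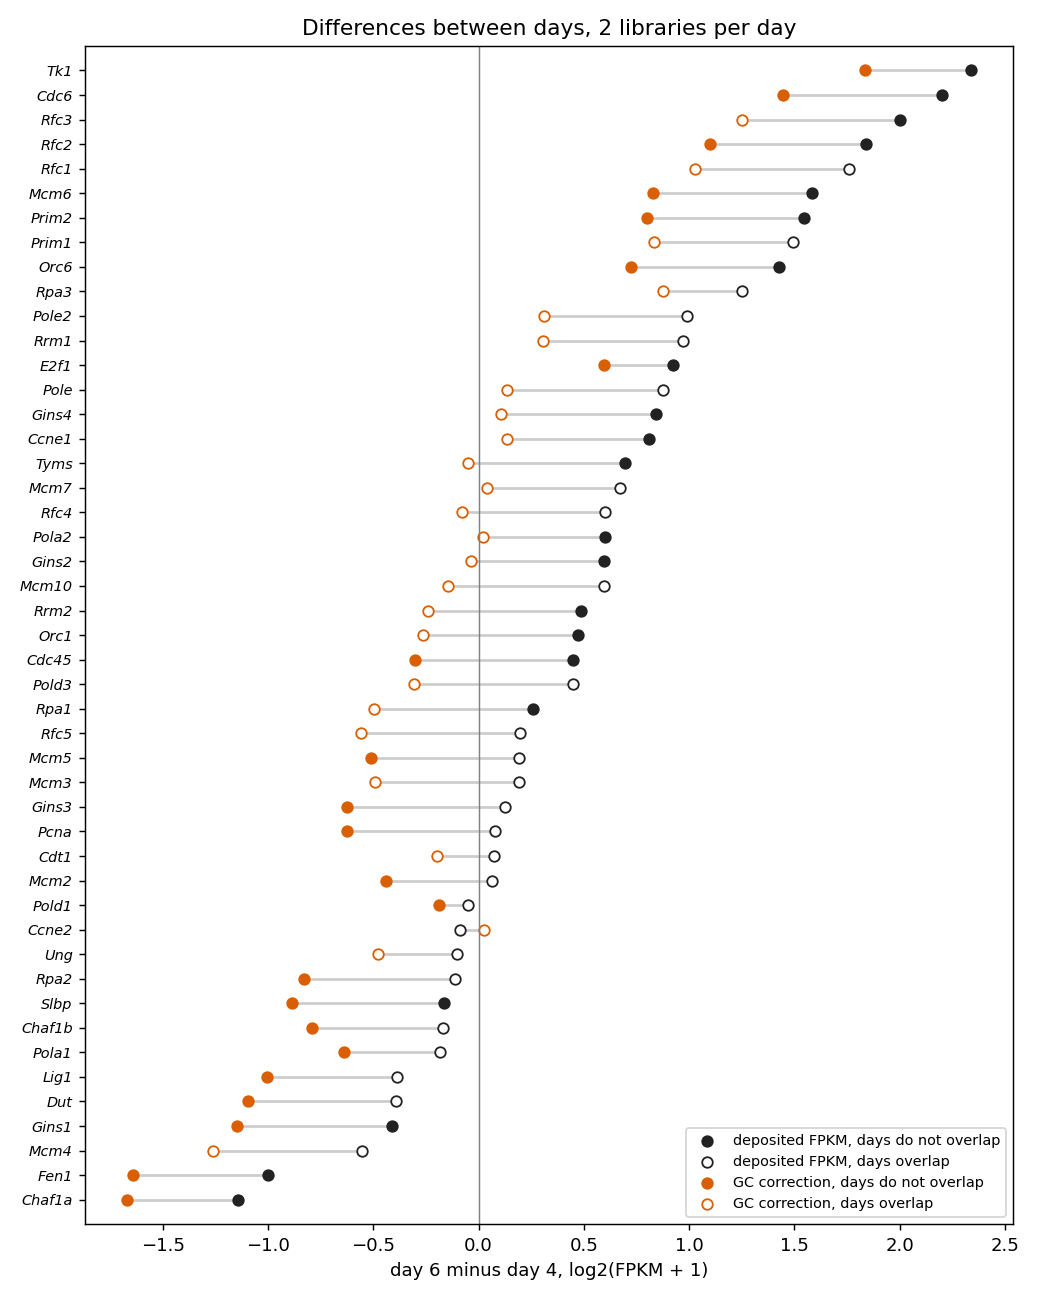
Difference between days, day 6 minus day 4 in log2(FPKM + 1), of each of the 47 genes on the deposited scale (black) and after the GC correction (orange), with 2 libraries per day. Filled points mark genes whose days do not overlap and open points those that do. Most points shift to lower values: the median of the members went from 0.47 to -0.19, and 10 members moved from overlap to lower.

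Other genes of the pathway, outside the 47, also went both ways. Of 65 further replication and G1/S genes, 64 were tested, of which 17 (26.6%) were higher at day 6 without overlap and 9 (14.1%) lower, against 41.6% and 11.5% of all genes tested. Their median log2 difference was 0.32. None passed limma's test after adjustment. The smallest p-values were those of Asf1b, Hells, Ten1, Mcmbp, Pold4 and Ctc1. Asf1b, a histone chaperone that feeds CAF-1, was at 2.58 and 4.54 FPKM at day 4 and 18.2 and 21.2 at day 6, and Hells, a chromatin remodeller, was at 48.0 and 19.7 and then at 4.57 and 4.34. These 2 differed in opposite directions, with log2 differences of 2.21 and -2.55 and a limma adjusted p of 0.267 for both.

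The G1 regulators, which act ahead of these genes, included genes with wide differences in both directions. Of 32 listed 30 were tested, with 12 (40%) higher at day 6 and 6 (20%) lower, against the same 41.6% and 11.5%, and a median of 0.32. Ccnd1, cyclin D1, was at 73.5 and 74.0 FPKM at day 4 and 16.0 and 14.5 at day 6 (log2 difference -2.20, limma adjusted p = 0.267). The kinase inhibitor Cdkn1c was at 84.3 and 52.2 and then 234 and 326 FPKM, and Cdk2, the partner of the E-type cyclins, was at 11.7 and 11.5 and then 34.1 and 32.5. Their limma adjusted p-values were 0.270 and 0.288. The day 4 libraries were close for Ccnd1 and Cdk2, and the days did not overlap for any of these 3 genes.

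Mitotic genes, which act after replication, were 9 higher (28.1%) and 1 lower (3.12%) of 32 tested, beside 41.6% and 11.5% of all genes, with a median of 0.68 against 0.51. Ccnb2, a cyclin of mitosis, was at 16.1 and 18.2 FPKM at day 4 and 55.0 and 73.7 at day 6 (log2 difference 1.84, limma adjusted p = 0.267). Mki67, the proliferation marker, was at 30.2 and 3.03 and then at 26.5 and 30.4 FPKM, so its days overlapped and it repeated the pattern of Prim1 and Rpa3, high in day 4 replicate 1 and low in replicate 2.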

How the data were processed

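RNA was taken up in TRIzol, selected on oligo(dT) beads and put through a stranded TruSeq mRNA kit, per the labels' protocols. The tools named in the submitters' processing notes are CASAVA and TopHat2 (2.0.11), and the build is mm10. The sources used here do not give the quantifier, its annotation or its use of strand. The authors deposited 1 table per library of 35656 transcript rows with FPKM, a lower and an upper FPKM bound, and a coverage signal, which was used only to describe depth.

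Rows were named from RefSeq (GRCm38.p6) and GENCODE M21 (95.5% of rows), and FPKM was summed per symbol. Tests used log2(FPKM + 1) with a pseudocount of 1 FPKM, on 11716 genes averaging at least 1 FPKM, with limma (3.58.1, in R 4.3.3; mean-variance trend, two-sided, Benjamini-Hochberg, threshold 0.05, no replicate block). Changes of low genes come out too small on this scale. Depth was estimated from the deposited bounds, taken as 2 Poisson SDs per side, and these intervals cover counting error only. Behind members with a single row the median was about 140, 109, 366 and 315 fragments in day 4 replicates 1 and 2 and day 6 replicates 1 and 2. GC content was corrected by loess with a span of 0.4. The alternatives were a pseudocount of 0.1, no filter, median, TPM, quantile and GC scaling, the highest row per gene, no trend, a replicate block, and leaving out each library. The members and the lists beside them were chosen with earlier results of these data known. Named outside the members were the 6 genes of a list with the smallest limma p, of which some are described, with Mki67 and Ccnd1 as anchors.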

Additional observations from a re-analysis of the deposited data

How the results depend on the processing

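The number of genes past limma's threshold was 0 with the deposited scale, 11 with no filter on low values and 67 with the replicate block. Of the members 0 passed in each. Leaving out 1 library gave 0 to 7837 genes, 17 to 35 members higher at day 6 without overlap, 4 to 19 lower and a member median of 0.08 to 0.79. The highest counts and both ends of the median came from leaving out a day 4 library (6081 and 7837 genes), and leaving out either day 6 library gave 0 genes. Without day 4 replicate 1, 35 members were higher without overlap and 12 lower, beside 65.0% and 28.7% of all genes. Without day 4 replicate 2 they were 24 and 19, beside 59.9% and 32.0%. On the full set of libraries these shares were 41.6% and 11.5%, so the rise in counts was shared by all genes. The median log2 difference of the members was 0.47 on the deposited scale and 0.029 under quantile normalization. It was -0.19 under median scaling and under the GC correction, with or without the replicate block for the latter. Counts of higher and lower members were 6 and 14 under median scaling, 9 and 9 under quantile normalization, and 7 and 15 under the GC correction with or without the replicate block. For all genes tested the median was 0.51, and -0.061, -0.023 and -0.031 under these scalings, so most of the shift was shared by all genes.

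Members with no overlap on the deposited scale that changed sign were, under median scaling, Orc1 (-0.17), Cdc45 (-0.22), Gins2 (-0.10), Pola2 (-0.086), Rpa1 (-0.44) and Rrm2 (-0.22). Under quantile normalization they were Orc1 (-0.12) and Rpa1 (-0.017). Under the GC correction, with or without the replicate block, they were Orc1 (-0.26), Cdc45 (-0.30), Gins2 (-0.036), Rpa1 (-0.50), Rrm2 (-0.24) and Tyms (-0.052). With the highest row only, Gins1 was at 1.55. The causes were not tested, apart from the choice of row at Gins1. The labels do not say that a replicate number is a shared culture, so the numbers were not taken as pairs. Same-numbered libraries deviated with a correlation of -0.09 across genes. That value cannot settle the pairing. Over all genes with a GC value, Pearson's r with GC content was 0.60 for the day 4 gap and -0.04 for the day 6 gap. A pseudocount of 0.1, TPM scaling and no trend changed no direction of these members. Day 4 depth limits the low members most.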
